A study of Homo sapiens with 6 samples.

Results

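The genes examined here are 9 genes of HLA class I antigen presentation, grouped by their function: the heavy chains HLA-B, HLA-C, HLA-E and HLA-F, the light chain B2M, the peptide transporter genes TAP1 and TAP2, the tapasin gene TAPBP and the transactivator NLRC5. They are 9 of the 28181 genes in the files, and 9 of 9 reached a mean of 1 normalized count (a gene's reads divided by the size factor of its library), as did 23040 genes in all. RNA was sequenced from UE7T-9, mesenchymal stem cells of human bone marrow made into a lasting line with hTERT and the papillomavirus E7 gene. The study asked which genes change when SHC4, an adaptor of receptor tyrosine kinases that the authors linked to entry of these cells into decellularized bone, is overexpressed. UE7T-9 SHC4 (3 libraries, genotype label SHC4-OE) carried SHC4 in a lentiviral vector with a CMV promoter and puromycin resistance. UE7T-9 Cont (3 libraries, genotype label WT) is titled Nontarget in the labels, whereas the methods describe the same vector with GFP. The cells of both groups were grown in DMEM, and the infected cells were selected with puromycin. The titles call the libraries of each group bio rep 1 to 3, and the series calls the SHC4 cells clones. Which clone, infection or culture each library came from is not given. The p-values therefore measure the spread between these libraries, which may not cover that between separate clones or infections. The libraries are called Cont 1 to Cont 3 and SHC4 1 to SHC4 3 after the replicate numbers in their labels.

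Class I molecules present peptides from inside the cell to CD8 T cells and are ligands for receptors of natural killer cells. A heavy chain folds with beta-2-microglobulin in the endoplasmic reticulum, where TAP1 and TAP2 bring in peptides cut by the proteasome and tapasin holds the empty chain at the transporter. NLRC5 joins a complex of RFX, CREB and NF-Y factors at class I promoters, and interferons induce most genes of the pathway. Mesenchymal stromal cells carry class I on their surface, with class II low unless interferon gamma is present.

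Promoters of class I heavy chains and of B2M are known for 3 kinds of element, and these stretches are shown to compare the elements between members. They are reference sequence from the RefSeq promoter windows on GRCh38.p14, which run from 250 bases before to 50 after the annotated start, and not the alleles of the line. Windows were found for 7 of the 9 members (HLA-E and NLRC5 were not matched). Capitals mark matches, on either strand, to the core of the interferon-stimulated response element (ISRE, a GAAA followed after any 2 bases by another GAAA), the IRF half-site AAGTGAAA, the CRE half-site TGACG and the CCAAT box CCAAT. The first and the second can overlap, and AAGTGAAA was added after the sequences had been seen. Longer stretches are given for a light and a heavy chain, and 30 bases for the others. All 30 bases shown for TAP2 also lie in an exon of the gene model AL669918.1. Those shown for HLA-F also lie in an exon of the pseudogene AL645939.1.

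B2M, chr15:44711332-44711476, plus strand, 185 to 41 bases before the start, in no annotated gene: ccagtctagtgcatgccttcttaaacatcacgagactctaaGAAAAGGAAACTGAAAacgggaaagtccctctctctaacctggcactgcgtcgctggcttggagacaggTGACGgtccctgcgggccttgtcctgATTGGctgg
HLA-C, chr6:31272133-31272277, minus strand, 185 to 41 bases before the start, inside an intron of the long HLA-B gene model: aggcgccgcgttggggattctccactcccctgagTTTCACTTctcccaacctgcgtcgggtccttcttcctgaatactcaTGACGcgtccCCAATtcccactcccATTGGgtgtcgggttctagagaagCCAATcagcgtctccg
HLA-B, chr6:31357315-31357344, minus strand, in an exon of the antisense pseudogene AL671883.2: ctcccctgagTTTCACTTcttctcccaact
HLA-F, chr6:29723268-29723297, plus strand, partly in an upstream HLA-F exon: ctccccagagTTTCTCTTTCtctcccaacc
TAP1, chr6:32853819-32853848, minus strand, in the first exon of a longer TAP1 transcript and an intron of PSMB9: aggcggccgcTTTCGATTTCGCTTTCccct
TAP2, chr6:32838778-32838807, minus strand, at the upstream edge of TAP2: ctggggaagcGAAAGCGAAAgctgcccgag
TAPBP, chr6:33314079-33314108, minus strand, in an exon of TAPBP transcripts with an earlier start: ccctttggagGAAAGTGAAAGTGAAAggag

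The ISRE core was found in 5 of the 8 windows of members (TAP1 has more than 1 window) and in 3.57% of all 35116 windows. It began 144 and 138 bases before the start of B2M, 156 before HLA-F, 134 and 128 before TAP1, 58 before TAP2, and 20 and 14 before TAPBP. HLA-B and HLA-C held the half-site instead, 155 and 151 bases before the start, and this motif was in 3 of 8 member windows and 1.62% of all windows. TGACG was in 4 of 8 (24.55% of all) and CCAAT in 5 of 8 (34.61% of all). A match in letters is a description and not a measured site.

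All 9 genes were well counted. Between 293 and 77575 recovered reads per library fell on each of them, and together they took 0.245% to 0.675% of the reads of a library, with library totals of 18144993 to 27721397 reads. SHC4 itself, which checks the labels, had normalized counts of 56.5 to 157 among controls and 119166 to 155006 with the vector. All 9 mesenchymal stromal markers were present, led per length by COL1A1, the main fibril collagen chain (67813 to 315042). The 5 of 7 leukocyte markers with values summed to 124 to 165 per library, led by the monocyte marker CD14 (52.7 to 88.3), and PTPRC, the pan-leukocyte marker, was at 0 in SHC4 3 and at most 6.82 elsewhere. The 7 endothelial and epithelial markers summed to 99.3 to 177, with CDH5 of endothelium at 0 in 4 libraries.

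Cont 1 stood apart from the other controls. Across genes, Cont 1 had a higher Pearson correlation of log2 values with SHC4 1 (0.977) than with Cont 2 (0.971) or Cont 3 (0.967). Cont 2 and Cont 3 correlated at 0.975 with each other. Of the controls, Cont 3 had the lowest correlations with the SHC4 libraries (0.968 to 0.969), so it was also far from the rest. Among the 9 genes the controls were also further apart than the SHC4 libraries in 7, so results are given with all 6 libraries first and then without Cont 1.

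Per kilobase of exonic sequence, B2M had the highest level, with a mean over the 6 libraries of 8028 normalized counts per kb. HLA-B followed with 6041, HLA-E with 2607 and HLA-C with 1947 per kb. B2M (range over libraries 4894 to 12553) and HLA-B (3662 to 10807) overlapped, as did HLA-E (1991 to 3177) and HLA-C (1223 to 3120.3), whereas the lowest value of HLA-B was above the highest of HLA-E. TAPBP (719 per kb, range 609.6 to 791) and TAP1 (434, range 268 to 766) came next, below the range of HLA-C, and overlapped each other. HLA-F (123), TAP2 (83.1) and NLRC5 (81.4) were lowest, and the range of HLA-F (65.8 to 270.3) overlapped those of TAP2 (58.7 to 125) and NLRC5 (62.7 to 131). Per kilobase of the longest annotated transcript instead, 7 of 9 genes kept their rank and NLRC5 (148) came before TAP2 (93.4). On that scale B2M was at 20308 and HLA-F at 325, and the range of HLA-F (175 to 718) lay above that of TAP2 (66.0 to 140.0). Some heavy chain reads cannot be assigned with certainty, since 2.72% of the annotated 50-base words of HLA-B, 5.38% of HLA-C, 4.34% of HLA-E and 0.98% of HLA-F also occur in transcripts of other genes. These words are from reference transcripts and not from the alleles of the line, whose effect on the counts was not tested.

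**Figure D1:**
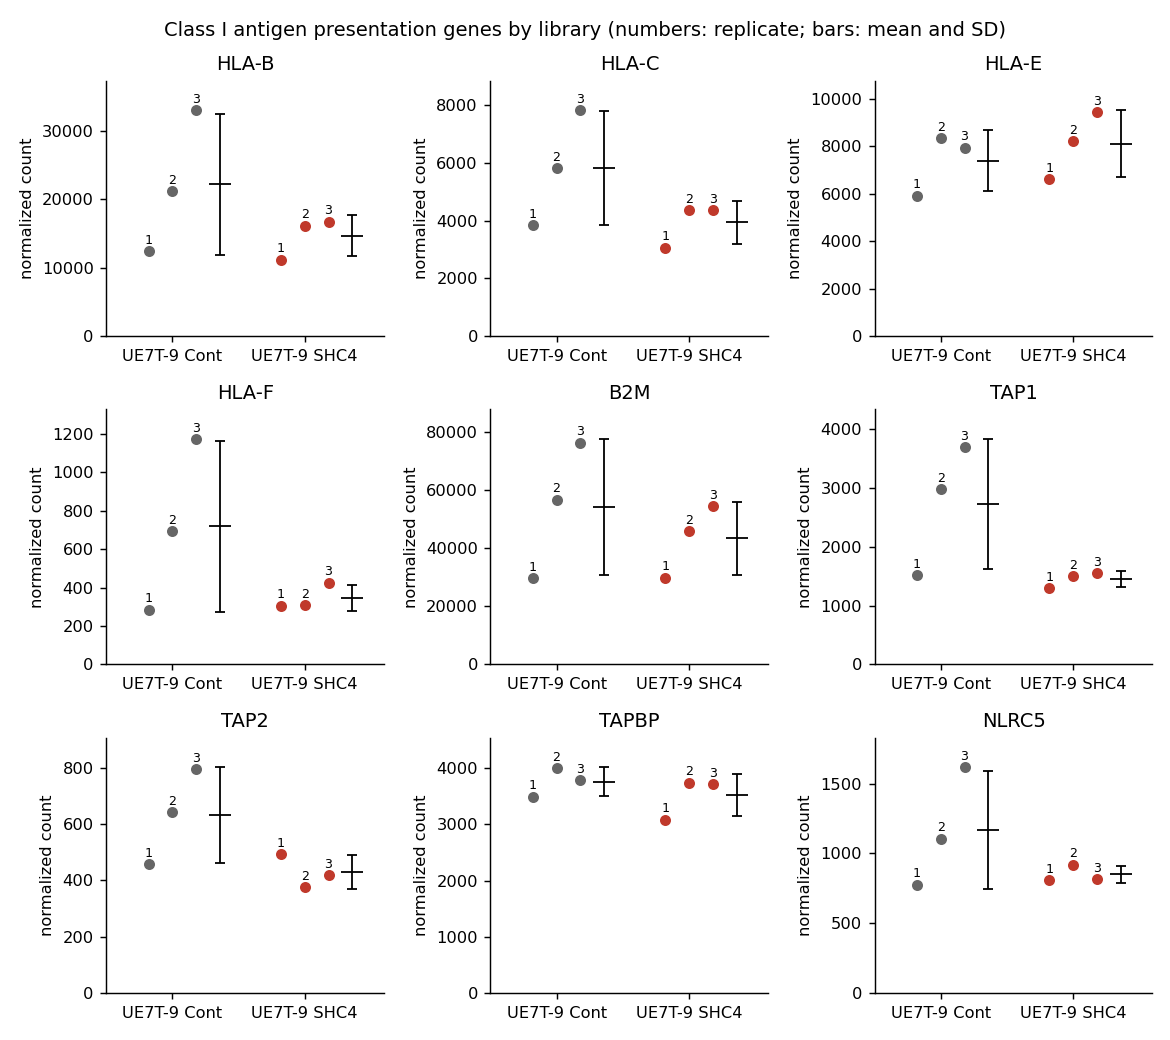
Normalized counts (y axis, from 0) of the 9 class I genes in the 3 UE7T-9 Cont libraries (grey) and the 3 UE7T-9 SHC4 libraries (red). Points are libraries with their replicate number, and the bars give the mean and SD of each group. Cont 3 was the highest of the 6 libraries in 7 of the 9 panels, and the groups overlapped in all 9.

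HLA-B and HLA-C, heavy chains that present peptides to T cells, had lower means in UE7T-9 SHC4, but the groups overlapped. HLA-B (ENSG00000234745, chromosome 6, 31269491 to 31357188) was at 12418, 21162.5 and 32971 normalized counts in Cont 1, 2 and 3 and at 11172, 16139 and 16725.5 in SHC4 1, 2 and 3. Cont 1 lay within the range of the SHC4 libraries, and Cont 3 was 2.66 times Cont 1. The means were 22184 ± 10315 and 14679 ± 3051 (SD, n = 3 each), and the log2 fold change was -0.51 ± 0.33 (standard error, 95% interval -1.26 to 0.24, limma adjusted p = 0.520, by Benjamini and Hochberg over all genes tested). HLA-C (ENSG00000204525, chromosome 6, 31268749 to 31272130) was likewise highest in Cont 3 and lowest in SHC4 1, with 3849, 5809.8 and 7823 in the controls and 3067, 4375 and 4368 in UE7T-9 SHC4. Cont 2 and Cont 3 were above all 3 SHC4 libraries, and Cont 1 was among them. Its log2 fold change was -0.53 ± 0.25 (standard error, 95% interval -1.10 to 0.04, limma adjusted p = 0.385). The annotated exons of HLA-B share 17.8% of their bases with the antisense pseudogene AL671883.2 and 1.1% with HLA-C, and whether the counting used strand is not given.

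HLA-E, a heavy chain that displays leader peptides of other class I chains to the NKG2A receptor of natural killer cells, stood apart from the other listed heavy chains. HLA-E (ENSG00000204592, chromosome 6, 30489467 to 30494205) was at 5924, 8335 and 7952 normalized counts in the controls and at 6630.1, 8238 and 9452 in UE7T-9 SHC4. The highest library was SHC4 3 and the lowest was Cont 1, with the groups interleaved. Its log2 fold change was 0.13 ± 0.19 (standard error, 95% interval -0.29 to 0.56, limma adjusted p = 0.793), the only positive value among the 9 genes in the fit of all 6 libraries. HLA-F, a heavy chain bound by receptors of natural killer cells also in its open, peptide-free form, had the widest spread. HLA-F (ENSG00000204642, chromosome 6, 29722775 to 29738528) was at 286, 695 and 1174 normalized counts in the controls and at 306, 307 and 426 in UE7T-9 SHC4. Cont 1 was the lowest of the 6 libraries and Cont 3 was 4.11 times as high, whereas the SHC4 libraries differed by at most 1.39 times. The log2 fold change was -0.85 ± 0.42 (standard error, 95% interval -1.80 to 0.11, limma adjusted p = 0.403). Of its annotated exonic bases, 16.1% lie opposite the pseudogene AL645939.1 and 12.3% opposite HLA-F-AS1.

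The light chain B2M was highest in Cont 3, like HLA-B and HLA-C, with a smaller difference between groups. B2M (ENSG00000166710, chromosome 15, 44711487 to 44718877) had 29751.5, 56692 and 76312 normalized counts in the controls and 29910.2, 45757.5 and 54379 in UE7T-9 SHC4. Cont 1 and SHC4 1 were nearly equal (ratio 0.995) and were the lowest of the 6 libraries. The log2 fold change was -0.26 ± 0.38 (standard error, 95% interval -1.11 to 0.59, limma adjusted p = 0.792). Per kilobase, the ratio of B2M to the sum of the 4 listed heavy chains was 0.639, 0.763 and 0.744 in the controls and 0.685, 0.762 and 0.852 in UE7T-9 SHC4, and these ranges overlapped.

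The peptide transporter genes had the smallest limma adjusted p-values of the 9 genes. TAP1 (ENSG00000168394, chromosome 6, 32845209 to 32853978), which encodes 1 chain of the transporter, was at 1514, 2971 and 3682 normalized counts in the controls and at 1289, 1504 and 1552 in UE7T-9 SHC4. Cont 2 and Cont 3 were both above every SHC4 library, while Cont 1 fell among the SHC4 libraries. The means were 2722 ± 1105 and 1449 ± 140.0 (SD, n = 3 each), and the log2 fold change was -0.82 ± 0.28 (standard error, 95% interval -1.45 to -0.19, limma adjusted p = 0.248). DESeq2 on the recovered reads gave -0.91 with an adjusted p of 0.0468, and edgeR -0.91 with an adjusted p of 0.200. TAP2 (ENSG00000204267, chromosome 6, 32821833 to 32838780), the partner chain, had 457, 644 and 796 in the controls and 494, 375 and 419 in UE7T-9 SHC4. For TAP2 the highest SHC4 library was SHC4 1, and it alone was above Cont 1. The log2 fold change was -0.53 ± 0.21 (standard error, 95% interval -0.996 to -0.063, limma adjusted p = 0.296). The ratio of TAP1 to TAP2 was 3.31, 4.61 and 4.63 in the controls and 2.61, 4.01 and 3.70 in UE7T-9 SHC4, with overlap. TAP2 shares 32.3% of its exonic bases with AL669918.1, a gene model on the same strand, and TAP1 shares 9.5% with the antisense RNA PSMB8-AS1.

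Tapasin and the transactivator differed in their spread. TAPBP (ENSG00000231925, chromosome 6, 33299694 to 33314387) had 3495, 4000.3 and 3786 normalized counts in the controls and 3082, 3739.9 and 3719 in UE7T-9 SHC4. It was the most even of the 9 genes among controls, with at most 1.14 times between libraries, and its log2 fold change was -0.10 ± 0.13 (standard error, 95% interval -0.40 to 0.20, limma adjusted p = 0.772). NLRC5 (ENSG00000140853, chromosome 16, 56989485 to 57083531) had 777, 1107 and 1618 in the controls and 810.3, 921 and 817 in UE7T-9 SHC4. The SHC4 libraries lay between Cont 1 and Cont 2. The log2 fold change was -0.40 ± 0.23 (standard error, 95% interval -0.92 to 0.13, limma adjusted p = 0.467).

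With all 6 libraries, limma called 0 of the 9 genes (the thresholds were 0.05 for the adjusted p and 1, up or down, for the log2 fold change), against 0.0608% of the 23040 genes tested. At an unadjusted p below 0.05 there were 2 of 9 (TAP1 and TAP2), against 14.4% of all genes. DESeq2 gave 1 of 9 (TAP1) an adjusted p below 0.05, against 4.14% of its genes, and with the fold threshold it called 0 of 9, as did edgeR. Groups did not overlap in 0 of 9 genes, against 19.3% of all genes. The exact two-sided permutation p of single genes was between 0.2 and 0.6, and 3 libraries against 3 cannot go below 0.1. The median log2 fold change of the 9 genes was -0.51, beside -0.004 over all genes tested. In bulk RNA, fewer cells that express these genes and less RNA per cell cannot be told apart.

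The 9 genes shared an order of libraries more than a difference between groups. Cont 3 was the highest of 6 libraries in 7 of 9, against 22.5% of all genes, and the lowest was a replicate 1 of either group in 8 of 9, against 37.5%. Cont 2 and Cont 3 were both above Cont 1 in 9 of 9 genes, against 38.8% of all genes. They were both above all 4 other libraries in 8 of 9, with HLA-E as the exception, against 16.7% of all genes. Within UE7T-9 SHC4 the largest span was that of B2M (1.82 times) and the smallest that of NLRC5 (1.14 times).

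**Figure D2:**
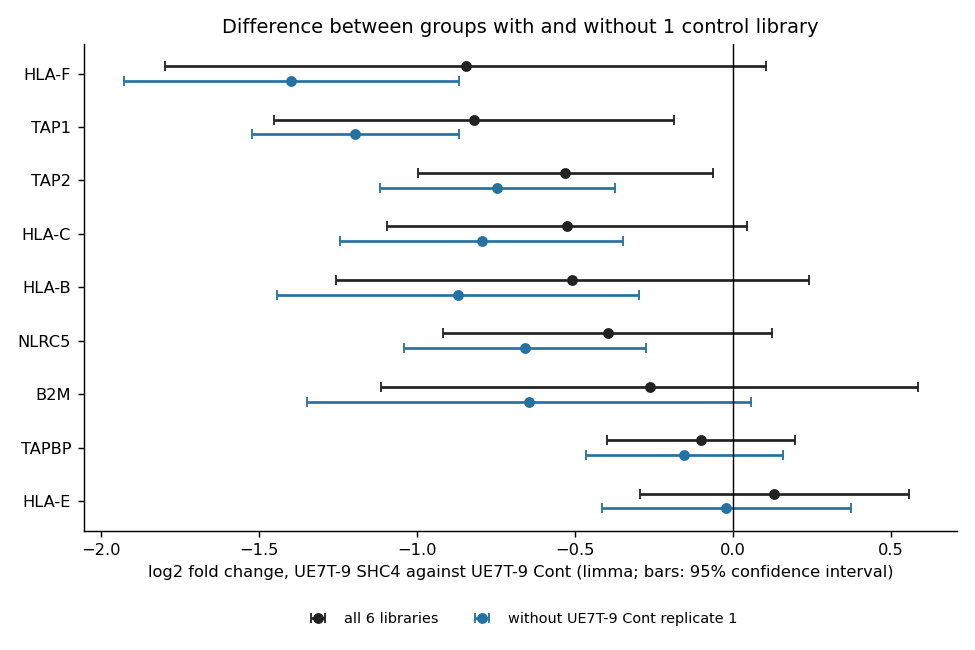
Log2 fold change of UE7T-9 SHC4 against UE7T-9 Cont (x axis, limma) for the 9 class I genes, with 95% confidence intervals, from all 6 libraries (black) and without Cont 1 (blue). Without Cont 1 each point lies further to the left, TAP1 at -1.20 and HLA-F at -1.40, while TAPBP and HLA-E stay near 0.

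Without Cont 1, most of the 9 genes were lower in UE7T-9 SHC4 than in the 2 remaining controls. In 8 of 9 genes (not HLA-E) all 3 SHC4 libraries were below Cont 2 and Cont 3, against 21.5% of all genes. With SHC4 1 left out as well the count was 8 of 9, against 28.7% of all genes. These are the 8 genes with Cont 2 and Cont 3 above every other library. Both counts therefore follow from that order of libraries and are not further results. limma gave 3 of 9 (TAP1, HLA-F and TAP2) an adjusted p below 0.05 with a lower level, against 2.69% of all genes. With a log2 fold change below -1 it called 2 of 9, TAP1 (-1.20 ± 0.15, standard error, adjusted p = 0.00337) and HLA-F (-1.40 ± 0.24, adjusted p = 0.0123), against 1.47% of all genes. TAP2 was at -0.74 ± 0.17 (adjusted p = 0.0338). HLA-C at -0.80 (adjusted p = 0.0506), NLRC5 at -0.66 (0.0564) and HLA-B at -0.87 (0.0805) were short of the limma threshold. B2M at -0.64 (adjusted p = 0.263), TAPBP at -0.15 (0.572) and HLA-E at -0.02 (0.965) were further from it. DESeq2 without the same library gave HLA-B (0.00479), HLA-C (0.00447) and NLRC5 (0.0128) an adjusted p below 0.05 as well, but not B2M (0.0892). Without Cont 3 in place of Cont 1 the differences shrank, to -0.55 for TAP1, -0.38 for HLA-F and 0.03 for B2M, with 0 of 9 called by limma. Cont 1 was singled out after the values had been seen, and nothing in the labels sets it apart.

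Markers of the response to interferon were highest in Cont 3, like most of the class I genes, and were spread further among controls, with a median log2 range of 3.35 against 1.06 in the 9 genes. The 21 markers, none of which is among the 9 genes, summed to 16826, 115272 and 163903 normalized counts in Cont 1, 2 and 3 and to 18623, 26989 and 36655 in SHC4 1, 2 and 3. The 9 class I genes summed to 58471, 101417 and 136114 and to 56761, 81357 and 91859 in the same libraries. Cont 3 was highest for 21 of 21 markers, against 22.5% of all genes. A log2 fold change below 0 was found in 21 of 21, with a median of -1.36, against 11600 of the 23040 genes tested. limma called 0 of 21 with all libraries (5 at an unadjusted p below 0.05, against 14.4% of all genes). DESeq2 called 1, against 355 of the 16153 genes it tested. This was the antiviral gene MX2 (74.1, 1018 and 1639 in the controls, 58.0, 111 and 102 in UE7T-9 SHC4, adjusted p = 0.0448). Without Cont 1, limma called 20 of 21 lower (not GBP2), against 1.47% of all genes. IFI6, the most abundant of them per length, had 1791, 21957 and 31989 in the controls and 1984, 4375 and 6585 in UE7T-9 SHC4. The part of the interferon response in the class I values was not tested.

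**Figure D3:**
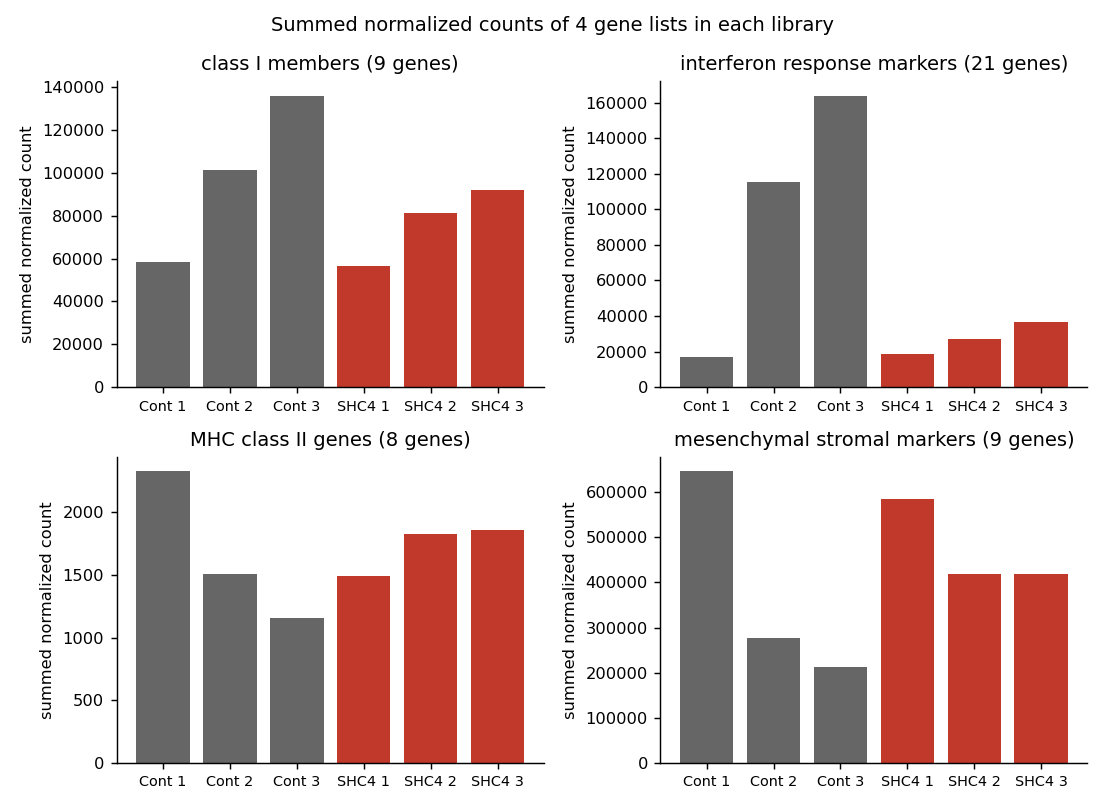
Summed normalized counts (y axis, from 0) of 4 gene lists in each library, with UE7T-9 Cont in grey and UE7T-9 SHC4 in red. The class I and interferon panels are highest in Cont 3, whereas the class II and mesenchymal panels are highest in Cont 1. Abundant genes weigh most in a sum. In Cont 3, B2M alone had 76312 of the class I sum of 136114. Of the mesenchymal markers, 3 of 9 were highest in Cont 1.

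Class II genes and mesenchymal markers had their highest sums in Cont 1, though single genes differed. The 8 class II genes with values summed to 2329, 1510.4 and 1158 in the controls and to 1493, 1827 and 1856 in UE7T-9 SHC4. Cont 1 was highest for 6 of 8, against 3901 of the 23040 genes tested. HLA-DPA1, a class II chain named here because of its values, was instead highest in Cont 3 (161, 211 and 234 in the controls, 164, 153 and 169 in UE7T-9 SHC4). CIITA, the class II transactivator and a relative of NLRC5, had 283, 124 and 160.3 in the controls and 158, 151 and 122 in UE7T-9 SHC4, with a log2 fold change of -0.31 (limma adjusted p = 0.664). HLA-DMA, a chain of the class II peptide editor and the most abundant class II gene per length, had 669.7, 711 and 429 in the controls and 469, 775 and 802 in UE7T-9 SHC4. limma called 0 of 8 class II genes (0 at an unadjusted p below 0.05), and DESeq2 called 0. Without Cont 1, limma called 2 of 8 higher, against 1.59% of all genes, and these were the invariant chain CD74 (log2 fold change 1.30, adjusted p = 0.00934) and HLA-DRA (1.03, adjusted p = 0.0259). The 9 mesenchymal markers summed to 646526, 275942 and 213327 in the controls and to 586070.0, 418613 and 418305 in UE7T-9 SHC4, and Cont 1 was highest for 3 of 9. limma called 0 of these 9 (3 at an unadjusted p below 0.05, against 14.4% of all genes). DESeq2 called 1, against 355 of the 16153 genes it tested. This was PDGFRB, the beta receptor of platelet-derived growth factor (log2 fold change 1.23, adjusted p = 0.0171). Without Cont 1, limma called 3 of 9 higher (PDGFRB, THY1 and DCN), against 1.59% of all genes. All 3 SHC4 libraries were then above Cont 2 and Cont 3 in 7 of 9, against 18.6% of all genes. Among endothelial and epithelial markers DESeq2 called 1, against the same share of all genes. This was KRT18, a simple epithelial keratin (log2 fold change -2.76, adjusted p = 0.00804), at 3.33 to 112 normalized counts. Here limma called 0 of 6 (1 at an unadjusted p below 0.05, against 14.4% of all genes). Without Cont 1 limma called KRT18 as well (-3.13, adjusted p = 0.0498), where 1.47% of all genes were called lower. Both tools called 0 of the 5 leukocyte markers (0 at an unadjusted p below 0.05 in limma). The part of these differences between libraries in the class I values was not tested.

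The proteasome subunits that cut peptides for class I molecules were divided. PSMB8 and PSMB9, inducible catalytic subunits encoded beside TAP1 and TAP2, were highest in Cont 3, like the transporter genes. PSMB8 had 1201, 1543 and 2008 in the controls and 1282, 1129.5 and 1263 in UE7T-9 SHC4 (log2 fold change -0.34, limma adjusted p = 0.426). PSMB9 had 610.2, 804 and 1118 in the controls and 634, 540.2 and 604 in UE7T-9 SHC4 (log2 fold change -0.47, limma adjusted p = 0.340), and without Cont 1 it was at -0.68 (limma adjusted p = 0.0460). PSMB10, the inducible subunit encoded on another chromosome, was even across libraries, with 182 to 199.8 in the controls and 169.8 to 196 in UE7T-9 SHC4 (log2 fold change -0.07, limma adjusted p = 0.870). The constitutive counterparts PSMB5 (log2 fold change -0.22), PSMB6 (-0.19) and PSMB7 (-0.09, the most abundant of them per length) had limma adjusted p-values of 0.572, 0.533 and 0.785 (0 of 3 at an unadjusted p below 0.05, and 0 called by DESeq2). The ratio of PSMB9 to PSMB6 was 0.438, 0.556 and 0.727 in the controls and 0.433, 0.451 and 0.506 in UE7T-9 SHC4, with overlap. Of the 5 inducible and activator genes, limma called 0 (2 at an unadjusted p below 0.05, against 14.4% of all genes) and DESeq2 called 0. The activator chain PSME1, the most abundant of them per length, had a log2 fold change of -0.03 (limma adjusted p = 0.940). The partner chain PSME2, named because of its values, was the only one of the 5 whose groups did not overlap (19.3% of all genes), with 2068.5, 2287 and 3185 in the controls and 1971, 1552 and 1543 in UE7T-9 SHC4. Its log2 fold change was -0.56 (limma adjusted p = 0.225), and without Cont 1 it was at -0.69 (limma adjusted p = 0.0545, DESeq2 adjusted p = 0.0111). PSMB8 shares 20.6% of its exonic bases with PSMB8-AS1.

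**Figure D4:**
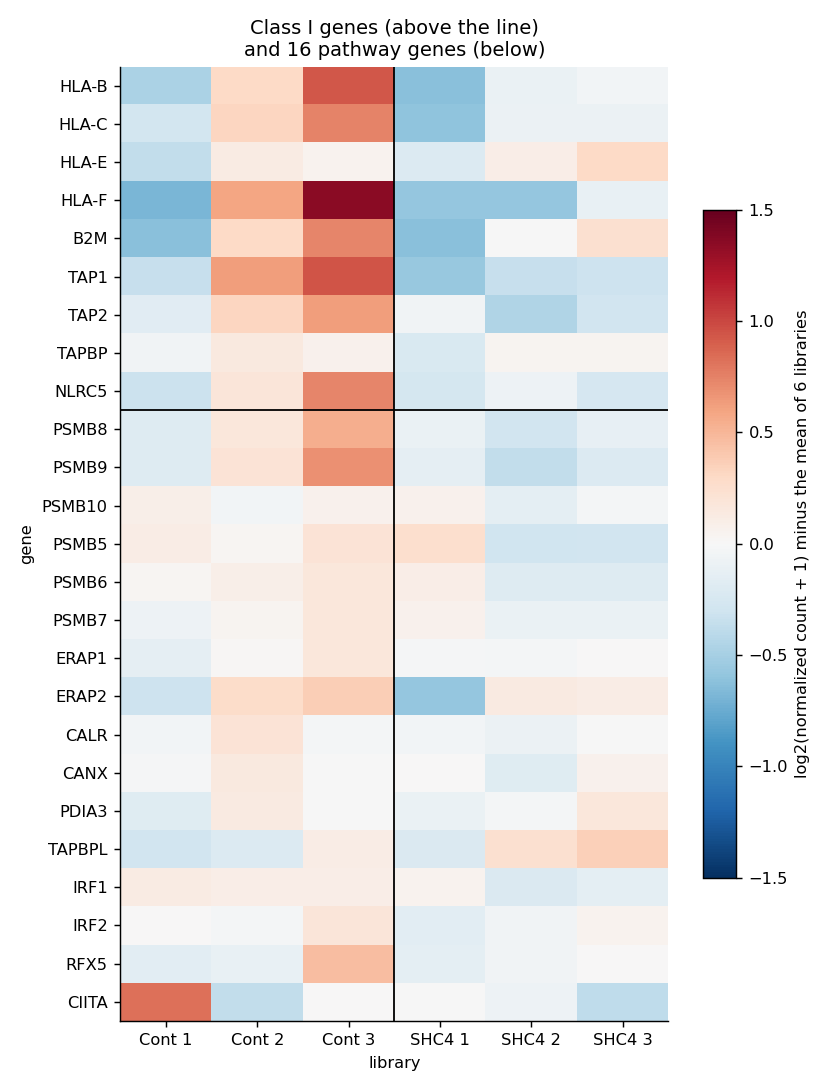
Log2(normalized count + 1) minus the mean of the 6 libraries (colour) for the 9 class I genes above the line and 16 pathway genes below it, with libraries on the x axis. HLA-B, HLA-C, HLA-F, TAP1, TAP2, NLRC5, PSMB8 and PSMB9 are highest in Cont 3, while CALR, CANX and PSMB10 are close to even.

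Genes that trim peptides or help heavy chains fold had a smaller median spread among controls than the class I genes. ERAP1 and ERAP2, aminopeptidases that trim peptides in the endoplasmic reticulum, had log2 fold changes of -0.03 (limma adjusted p = 0.936) and -0.22 (0.711). ERAP2 had 2298, 3465 and 3702 in the controls and 1919, 3131 and 3094 in UE7T-9 SHC4, with both replicates 1 lowest. The chaperones CALR, the most abundant of the group per length, and CANX were at -0.09 (limma adjusted p = 0.881) and -0.08 (0.874), and the disulfide isomerase PDIA3 was at 0.03 (0.949). TAPBPL, a tapasin relative, was at 0.25 (limma adjusted p = 0.565). The list also held HLA-G, a heavy chain known from placenta, which was near the detection floor, with 0, 3.53 and 13.8 in the controls and 0, 1.66 and 0 in UE7T-9 SHC4. Of these 7 genes limma called 0 (0 at an unadjusted p below 0.05), and DESeq2 called 0 and gave HLA-G no adjusted p. The median log2 range among the 3 controls was 0.32 in this list and 1.06 in the 9 class I genes. It was 0.68 over all genes tested and 0.36 over those with a mean of at least 100. The 9 class I genes and all of this list but HLA-G were above that mean.

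The factors that act at class I promoters had no gene past the threshold. limma called 0 of 13 (0 at an unadjusted p below 0.05) and DESeq2 called 0. RFX5, the DNA-binding subunit of the RFX complex, had 901, 930.0 and 1391 in the controls and 914, 973 and 1017 in UE7T-9 SHC4 (log2 fold change -0.12, limma adjusted p = 0.791). IRF1, an activator of class I genes induced by interferon gamma, had 491, 483 and 482 in the controls and 469, 389 and 406 in UE7T-9 SHC4 (log2 fold change -0.21, limma adjusted p = 0.506). The 3 controls were all above the 3 SHC4 libraries for IRF1, and the controls were nearly equal, unlike their spread in the class I genes. Of the 13 factors, 4 had groups that did not overlap, against 19.3% of all genes: IRF1 and NFYC (log2 fold change -0.20) lower in UE7T-9 SHC4, and IRF3 (0.20) and RELA (0.21) higher. IRF2, the most abundant of them per length, was at -0.10 (limma adjusted p = 0.750). Among the 9 interferon receptor and JAK pathway genes limma and DESeq2 called 0 as well (0 at an unadjusted p below 0.05 in limma), and the most abundant per length, STAT2, had 5763, 10396 and 11283 in the controls and 7097, 9271 and 9654 in UE7T-9 SHC4. Among the listed genes outside the 9 class I genes, the smallest adjusted p from edgeR was 0.133.

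Of 11 ratios between genes computed within each library, 2 separated the groups, a share close to the 19.3% of single genes. The ratios reuse some genes, so single genes are not a matched background. The 2 ratios were singled out after the values had been seen. The ratio of HLA-E to HLA-B in normalized counts was 0.477, 0.394 and 0.241 in the controls and 0.593, 0.510 and 0.565 in UE7T-9 SHC4. The ratio of TAP1 to TAPBP was 0.433, 0.743 and 0.972 in the controls and 0.418, 0.402 and 0.417 in UE7T-9 SHC4. In both, Cont 1 was the control nearest to the SHC4 libraries, and for TAP1 to TAPBP it was 0.433 beside an SHC4 maximum of 0.418. The ratio of HLA-C to HLA-B overlapped, at 0.310, 0.275 and 0.237 in the controls and 0.275, 0.271 and 0.261 in UE7T-9 SHC4.

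**Figure D5:**
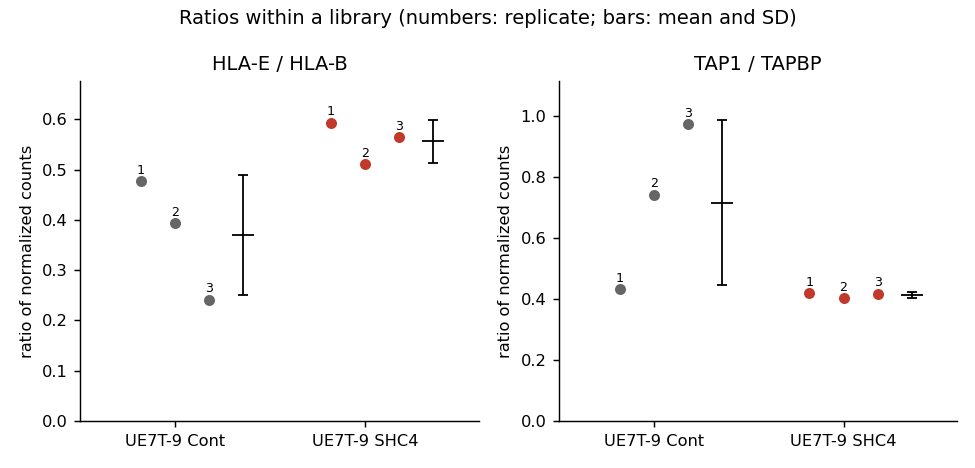
Ratio of normalized counts within each library (y axis, from 0) for HLA-E to HLA-B and TAP1 to TAPBP, with replicate numbers at the points and the mean and SD of each group as bars. The SHC4 libraries lie between 0.510 and 0.593 on the left and between 0.402 and 0.418 on the right, and the controls are spread from 0.241 to 0.477 and from 0.433 to 0.972.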

How the data were processed

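RNA was extracted with an RNeasy kit from 3 samples of each group, and NEBNext Ultra RNA libraries were sequenced on a NovaSeq system. The authors deposited, for each library, a signal per gene that is its count over the library's size factor (the normalized count). HISAT2 2.0.5, featureCounts 1.5.0-p3 and DESeq2 are listed in the submitters' processing notes without roles. The genome build, annotation and strand setting are not given in the sources used here. Positions are from GENCODE 29 on GRCh38, matched by identifier (28181 of 28181 genes). Reads were recovered by dividing by the value of 1 read, since 100% of values were whole multiples of it (tolerance 0.01 reads). A count of 3 reads corresponds to a normalized count of 2.50 to 3.53.

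Groups were compared with limma 3.58.1 (R 4.3.3, lmFit and trended eBayes) on log2(normalized count + 1), which understates fold changes of low genes, for genes with a mean of at least 1. It called 14 of 23040 genes at a Benjamini-Hochberg adjusted p below 0.05 with a log2 fold change beyond 1. DESeq2 1.42.0 and edgeR 4.0.16 (quasi-likelihood), run on the recovered reads, called 355 and 10. Tested on simulated counts for this comparison (23040 genes, 200 of them shifted by a log2 change of 2), limma found 99%, DESeq2 99.5% and edgeR 99%. The simulation drew each gene independently, without a spread shared between genes like that among the controls. It shifted only genes with a mean of at least 50, by more than any class I gene differed. It therefore checks the code and does not give the power for the class I genes. Alternatives were library size and TMM scaling, a pseudocount of 0.1, no filter, a minimum mean of 10, the replicate number as a block and leaving out each library. Fits without replicate 1 of both groups, and DESeq2 without Cont 1, were added after the data were seen.

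The 9 genes and all lists were chosen with earlier results of these data known. The text names the 9 genes, 16 pathway genes fixed by name, any list gene called by limma or DESeq2, the most abundant gene of each list per kilobase of annotated exons, and SHC4, and further genes only after their values had been seen. Of the genes listed, 5 have no value here (CD1D, HLA-DQA1, HLA-DQB1, CD3E and LCP2). Some other genes are not reported here. Protein sequences were not used here.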

Additional observations from a re-analysis of the deposited data

How the results depend on the processing

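Of 144 values of a class I gene under an alternative, 135 kept their sign and stayed uncalled, 6 were called (TAP1 and HLA-F in each of the 3 kinds of fit without Cont 1) and 3 changed sign. Of 256 values of pathway genes, 247 kept both and 9 changed sign. Class I genes called numbered 0 in each fit of all 6 libraries, 0 to 2 with 1 library left out, 2 without replicate 1 of both groups and 2 in DESeq2 without Cont 1. Those whose groups did not overlap numbered 0 to 8 with 1 library left out (8 without Cont 1) and 8 without replicate 1 of both groups, where 28.7% of all genes were lower in the same way. Among all genes the count called moved from 14 to 355 (DESeq2), 28 (library size scaling), 24 (TMM scaling), 40 (no filter), 39 (replicate block), 2 to 706 (1 library left out), 872 (without replicate 1 of both groups) and 892 (DESeq2 without Cont 1). Library size scaling put the median log2 fold change of all genes at -0.10. With 1 library left out, log2 fold changes that crossed 0 ranged from -0.0213 to 0.2691 for HLA-E, -0.645 to 0.0345 for B2M, -0.1068 to 0.0456 for ERAP1, -0.435 to 0.0109 for ERAP2, -0.0503 to 0.1105 for PDIA3, -0.234 to 0.0792 for RFX5 and -0.5727 to 0.0207 for CIITA. DESeq2 without Cont 1 gave -0.0053 for HLA-E, -0.046 for PDIA3 and 0.0199 for CIITA, and library size scaling gave -0.0703 for PDIA3. The cause of these changes was not tested.

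Nothing in the labels says that equal replicate numbers share a source, and whether they pair the libraries depends on the genes read. Deviations from the group means of replicates 1, 2 and 3 correlated at 0.148, 0.013 and -0.007 across 23040 genes, and at 0.409, 0.146 and 0.149 across the 12678 with a mean of at least 50. In that set SHC4 3 had a higher correlation with Cont 2 (0.517) than with Cont 3. With the replicate block limma called 0 of the 9 class I genes, with adjusted p-values of 0.111 (TAP1) to 0.671 (TAPBP). The block narrowed the 95% intervals except that of TAP2. With it, those of HLA-B (-0.93 to -0.08), HLA-C (-0.84 to -0.22) and HLA-F (-1.47 to -0.22) came to lie below 0. Those of TAP1 (-1.25 to -0.39 with the block) and TAP2 (-0.998 to -0.061) lay below 0 with and without it. With 3 libraries per group and this spread among controls, the intervals given for each gene are the limit of what could be seen, and 2 remaining controls are an even smaller group.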

Other observations

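Genes with a class I fold that do not present peptides to T cells were measured as well. MICA and MICB, ligands of the NKG2D receptor that appear on stressed cells, were lower in Cont 1 than in Cont 2 and Cont 3. MICA, the most abundant of this list per length, had normalized counts of 1515, 2956 and 2358 in Cont 1, 2 and 3 and of 1623, 1225 and 1716 in SHC4 1, 2 and 3. MICB had 793, 1381 and 1507 in the controls and 759, 794 and 819.8 in UE7T-9 SHC4, and without Cont 1 its log2 fold change was -0.87 (limma adjusted p = 0.00585). ULBP2, another NKG2D ligand, was lower in all 3 SHC4 libraries (282, 165 and 241) than in all 3 controls (321, 589 and 727), with a log2 fold change of -1.20 (limma adjusted p = 0.175) and a DESeq2 value of -1.25 (adjusted p = 0.00716). ULBP3 lay the other way, with 53.6, 62.4 and 61.0 in the controls and 65.0, 64.9 and 65.2 in UE7T-9 SHC4 (log2 fold change 0.14, limma adjusted p = 0.820). MICB, ULBP3 and FCGRT are named here because of their values.

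FCGRT, the heavy chain of the neonatal Fc receptor, which carries IgG and albumin and also pairs with beta-2-microglobulin, had the opposite direction. Its normalized counts were 1431, 1446 and 1133 in the controls and 1861, 3235 and 2894 in UE7T-9 SHC4, with no overlap. The log2 fold change was 0.96 (limma adjusted p = 0.135), and DESeq2 gave 0.99 (adjusted p = 0.00208). Of the 9 class I-like genes with values, limma called 0 (5 at an unadjusted p below 0.05, against 14.4% of all genes). DESeq2 called 1, ULBP2, against 355 of the 16153 genes it tested. Groups did not overlap for 2 that were higher in UE7T-9 SHC4 (FCGRT and ULBP3) and 1 that was lower (ULBP2), against 19.3% of all genes.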
